A study of Oryza sativa with 12 samples.

Results

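The distal 2 Mb of the short arms of rice chromosomes 11 and 12 are a pair of duplicated segments. The regions described here are all H2A.Z and H3 regions with a midpoint in the first 2 Mb of either chromosome, in the MSU7 coordinates of the peak tables. A region is the union of the peaks of the 4 libraries of one antibody that overlapped or touched. The rule gave 1375 of the 127924 regions of the series, of which 681 were H2A.Z regions (336 on chromosome 11 and 345 on chromosome 12, of 53017 in all). The other 694 were H3 regions (349 on chromosome 11 and 345 on chromosome 12, of 74907 in all).

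H2A.Z is a variant of histone H2A that replaces the canonical protein in part of the nucleosomes. In plants it is enriched at the nucleosome after the transcription start site of many genes, and it lies along the bodies of genes that respond to the environment. H3 is a core histone of every nucleosome, so H3 ChIP follows how many nucleosomes a stretch of DNA carries. The ends of chromosomes 11 and 12 come from an ancient duplication of the cereal genome in which the copies kept exchanging sequence, so many of their genes exist as closely similar pairs. Reads from nearly identical copies align equally well to both, and aligners give such reads a low mapping quality.

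The study asked whether loss of OsChz1, a histone chaperone that binds H2A-H2B and H2A.Z-H2B dimers, alters H2A.Z in chromatin. ChIP-seq was done on seedlings aged 30 days and grown in long days, of the genotypes oschz1 and NIP. NIP is the unmutated japonica cultivar Nipponbare, and oschz1 is 1 line with a small CRISPR/Cas9 deletion in OsChz1 that removes its function. Each genotype had 2 H2A.Z libraries, 2 H3 libraries and 2 inputs, every one from several grams of pooled seedlings, and the study calls the replicates biological. The H2A.Z libraries held 16886473 to 22192417 reads in 48048 to 49893 peaks, and the H3 libraries 9179714 to 14466571 reads in 49030 to 54026 peaks. Within the segments, a region with a peak in all 4 libraries held a median of 301 ChIP reads and 57 input reads per library for H2A.Z, and 212 ChIP reads and 53 input reads for H3. The inputs entered only through the input reads listed for each peak. H2A.Z and H3 peaks with the same coordinates in the segments had the same input count in 37 of 37 and 24 of 24 cases in oschz1, and in 27 of 27 and 31 of 31 cases in NIP. Each input therefore served both antibodies, and its errors are shared between them.

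Both segments carried dense H2A.Z peaks. The chromosome 11 segment held 321 and 305 H2A.Z peaks in the oschz1 libraries, against 305 and 299 in the NIP libraries. The chromosome 12 segment held 322 and 323 peaks in oschz1, against 332 and 311 in NIP. These peaks covered 21.08% and 19.61% of the chromosome 11 segment in oschz1, against 19.05% and 18.92% in NIP. On chromosome 12 they covered 21.39% and 21.09% in oschz1, against 20.91% and 19.58% in NIP. The mean peak was 1249 to 1313 bp wide on chromosome 11 and 1259 to 1329 bp on chromosome 12, and the median was 1000 bp in every library.

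H3 peaks were fewer, narrower and weaker, and they recurred less from library to library. The 4 H3 libraries had 213 to 236 peaks on chromosome 11 and 209 to 237 on chromosome 12, with mean widths of 883 to 932 bp and 922 to 984 bp. H3 peaks covered 10.91% and 9.40% of the chromosome 11 segment in oschz1, against 10.50% and 10.01% in NIP. On chromosome 12 the cover was 10.37% and 10.17% in oschz1, against 11.51% and 11.28% in NIP. Only 29.8% of the H3 regions of the segments had a peak in all 4 libraries, while 72.7% of the H2A.Z regions did, and a single library was the source of 26.5% of the H3 regions and 8.52% of the H2A.Z regions. The shares in all 4 libraries over the whole genome were 33.6% for H3 and 71.9% for H2A.Z.

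The values of the segments lay close together in most measures. Within each library, the chromosome 11 segment was set against the chromosome 12 segment in 5 measures per antibody, with a two-sided exact sign-flip permutation test over the 4 libraries, whose smallest p is 0.125. Chromosome 11 had fewer H2A.Z peaks in 4 of 4 libraries, with a mean difference of -7.25 ± 5.45 peaks per Mb (SD, n = 4, exact p = 0.125, 0.417 after Benjamini-Hochberg adjustment over the 10 comparisons). Its H2A.Z cover was lower in 4 of 4 libraries, with a mean difference of -1.08 ± 0.716 percentage points (SD, n = 4, exact p = 0.125, adjusted p = 0.417). Over the first 1.5 Mb alone the difference in peak number had the other sign, at 3.17 peaks per Mb, and that in cover was -0.0433 percentage points, lower in 2 of 4 libraries (exact p = 0.875, n = 4).

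For ChIP over input, ChIP reads were summed and divided by the summed and scaled input reads, over regions present in all 4 libraries, 243 on chromosome 11 and 252 on chromosome 12 for H2A.Z. It averaged 2.28 in both segments, with a difference of 0.0030 ± 0.0432 (SD, n = 4, exact p = 0.875, adjusted p = 0.972). Single libraries differed by -0.0464 to 0.0564, to either side. For H3 the segments averaged 1.54 on chromosome 11 and 1.53 on chromosome 12 (exact p = 0.5, adjusted p = 0.714, n = 4). H3 peaks were narrower on chromosome 11 in 3 of 4 libraries, by a mean of -58.0 ± 48.6 bp (SD, n = 4, exact p = 0.25, adjusted p = 0.417). No comparison of the 2 segments could pass 0.05 with 4 libraries.

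Against the first 2 Mb of the other 10 chromosomes, the segments lay at the low end in H3 peaks and in input reads under their peaks. The mean of the segments was compared with the mean of the other 10 starts within each library by the same exact sign-flip test. Here, as between the 2 segments, SD and p describe the spread between libraries only, since each chromosome start exists once. All 10 comparisons had the same direction in 4 of 4 libraries, so that every exact p was 0.125, the smallest possible, and 0.125 after adjustment. H3 peaks covered 10.5% of the segments on average, against 13.8% of the other starts, a difference of -3.27 ± 0.396 percentage points (SD, n = 4). The difference in H3 peaks was -20.6 ± 2.56 per Mb and that in mean H3 peak width -97.3 ± 8.82 bp (SD, n = 4 each). With peaks at a false discovery rate of at most 1e-10, H3 cover was 4.01% of the segments against 5.43% of the other starts, the difference in peaks was -8.94 per Mb, and that in width was -67.4 bp and negative in 3 of 4 libraries. Among the 12 chromosome starts, the segments had the lowest and the next lowest H3 cover in 3 of 4 libraries. In NIP replicate 2 they had ranks 1 and 3. The lowest of the other starts lay close, with 11.21% and 10.88% in oschz1, and 11.52% and 10.58% in NIP. The higher of the segments had 10.91% and 10.17% in oschz1, and 11.51% and 11.28% in NIP. In mean H3 peak width, chromosome 11 ranked between 1 and 4, and chromosome 12 between 3 and 6.

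For H2A.Z the segments were not extreme. They had 157 peaks per Mb against a mean of 138 at the other starts, a difference of 19.5 ± 3.47 (SD, n = 4). Single other starts ran from 46 to 204 peaks per Mb, with medians of 146.5 to 152.25 in the 4 libraries. The segments ranked between 6 and 10 of 12 in peak number. Their peaks were narrower (1283 bp against 1389 bp). Their H2A.Z cover of 20.2% was close to the 19.8% of the other starts, with a mean difference of 0.383 ± 0.258 percentage points (SD, n = 4), which was positive in 3 of 4 libraries at a false discovery rate of at most 1e-10, and it ranked between 4 and 7 of 12 in every library. ChIP over input was higher in the segments by 0.0556 ± 0.0489 for H2A.Z and by 0.0407 ± 0.0121 for H3 (SD, n = 4 each). The H2A.Z value was 0.0355 without NIP replicate 2, and over the first 1.5 Mb it was 0.0145, higher in 2 of 4 libraries (exact p = 0.75, n = 4). A smaller share of the bases in H2A.Z peaks also lay in H3 peaks of the same genotype and replicate number, a difference that was not tested. The shares were 22.6% and 22.2% in the oschz1 segments, against 26.0% and 26.9% in the NIP segments. At the other starts the mean shares were 30.7% and 28.6% in oschz1, against 35.3% and 33.7% in NIP. The lowest of the other starts had 25.1% and 22.6% in oschz1, and 29.1% and 27.1% in NIP. The higher of the segments had 24.0% and 22.8% in oschz1, and 27.0% and 28.0% in NIP. The segments thus overlapped the other starts in replicate 2 of both genotypes. The reverse share, of bases in H3 peaks that lay in H2A.Z peaks, was 45.3% to 48.6% in the segments and 45.04% to 46.4% at the other starts.

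**Figure D1:**
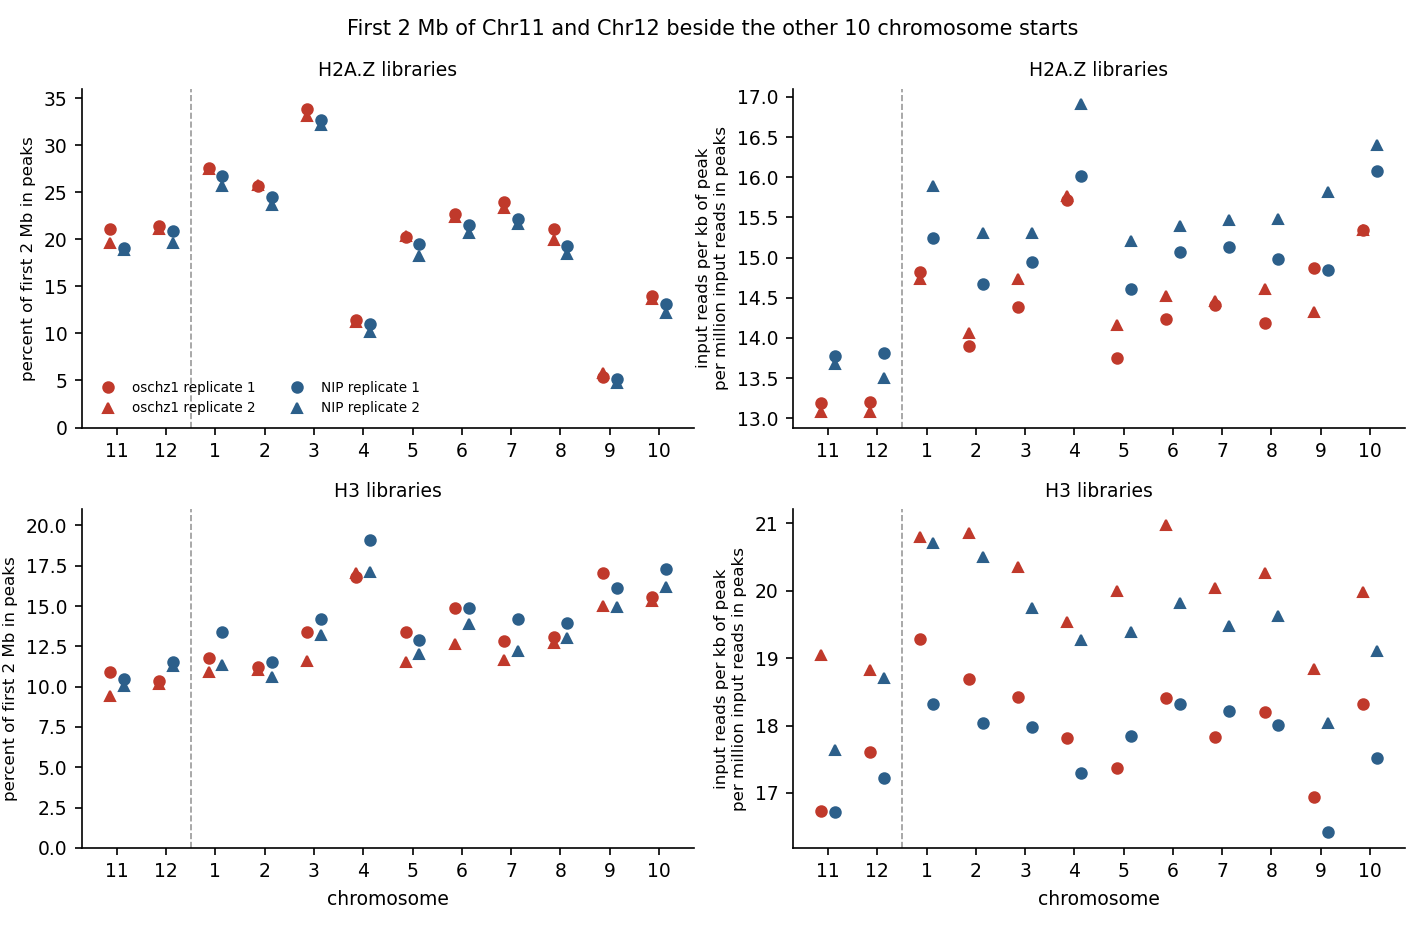
Percent of the first 2 Mb covered by peaks (left) and input reads per kb of peak per 1000000 input reads in peaks (right; axes do not start at 0) for chromosomes 11 and 12, left of the dashed line, and the other 10 chromosomes; each point is 1 library. H2A.Z cover of the segments lies within the range of the other starts, H3 cover lies at its low end (9.40% to 11.51%), and in the H2A.Z libraries the input reads per kb are the lowest of all 12 starts.

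The files hold no mapping qualities, and the reads that the quality filter removed cannot be counted from them. The one trace available is the number of input reads under the peaks, since a removed read lowers it. This number is not specific to the filter, because input density can vary for other reasons. The H2A.Z peaks were also called against this same input, which favours places with few input reads. In the H2A.Z libraries, peaks of the chromosome 11 segment held 13.2 and 13.1 input reads per kb in oschz1, against 13.8 and 13.7 in NIP, both per 1000000 input reads in peaks. Peaks of the chromosome 12 segment held 13.2 and 13.1 in oschz1, against 13.8 and 13.5 in NIP. In all 4 H2A.Z libraries these were the 2 lowest values of the 12 starts, and the mean difference to the other 10 starts was -1.61 ± 0.359 (13.4 against 15.0, SD, n = 4, exact p = 0.125). In the H3 libraries the difference was -1.10 ± 0.258 (17.8 against 18.9, SD, n = 4, exact p = 0.125), and the segments took ranks 1 to 4. With peaks at a false discovery rate of at most 1e-10 it was -3.28 (45.5 against 48.8). Those values are scaled to the input reads in the stricter peaks only, so their size cannot be set beside -1.10. Between the 2 segments, chromosome 11 minus chromosome 12, the mean difference for H2A.Z was 0.0306 ± 0.0985 (SD, n = 4, exact p = 0.875, adjusted p = 0.972). For H3 it was -0.554 ± 0.569 (SD, n = 4, exact p = 0.25, adjusted p = 0.417), and positive in 1 of 4 libraries. The H3 value was -0.633 over the first 1.5 Mb and -0.684 with peaks under 600 bp apart joined. With the stricter peaks, on their own scale, it was -2.98 (exact p = 0.125 for each of these 3, n = 4).

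The difference per peak was small. The median H2A.Z peak held 0.892 to 0.935 times the input density of the median peak of its library on chromosome 11 and 0.887 to 0.944 times on chromosome 12, against 0.949 to 1.08 times at the other 10 starts. Peaks with less than 0.5 times the library's median density made up 2.18% to 6.35% of H2A.Z peaks on chromosome 11 and 3.01% to 5.47% on chromosome 12, against a median of 2.10% and a range of 0.592% to 5.77% at the other starts. By 100-kb bin, the lowest H2A.Z input density on chromosome 11 was between 900 and 1000 kb, with 0.749 to 0.841 times the library median in the 4 libraries. How much of this is due to the mapping quality filter was not tested. A read lost from both ChIP and input leaves ChIP over input unchanged, but it lowers the counts and the power to call a peak.

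The outermost part of both segments was almost free of peaks. In all 8 libraries together, chromosome 11 had no peak from 4801 to 107800, a stretch of 103.0 kb. Chromosome 12 had no H2A.Z peak from 3201 to 103600, a stretch of 100.4 kb, which held 1 H3 peak at 53801-54400, present in all 4 H3 libraries with ChIP over input of 2.72 and 3.05 in oschz1 and of 2.61 and 3.42 in NIP. Each tip began with H2A.Z peaks in all 4 libraries, at 1401-2800 and 3401-4800 on chromosome 11 and at 1801-3200 on chromosome 12. Over all 8 libraries, the longest peak-free stretch at the other 10 starts was 95.0 kb, on chromosome 7 between 1316401 and 1411400, and at the very tips of the other chromosomes the longest was 39.2 kb, on chromosome 9. For H2A.Z alone, chromosome 9 had 105.0 kb without a peak and chromosome 7 had 116.2 kb.

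Each empty tip ended at a weak region of the same width, with peaks in different libraries on the 2 chromosomes. On chromosome 11 the next region was 400 bp wide, at 107801-108200, with an H2A.Z peak in both oschz1 libraries and an H3 peak in oschz1 replicate 2. On chromosome 12 it was also 400 bp wide, at 103601-104000, with an H2A.Z peak in oschz1 replicate 1 and both NIP libraries and an H3 peak in NIP replicate 2. Neither was strong, with H2A.Z ChIP over input between 1.37 and 1.80. The following H2A.Z regions began at 123601 on chromosome 11 and at 119201 on chromosome 12. On chromosome 12 a further stretch of 38.2 kb, from 167401 to 205600, had no H2A.Z peak in any library. Whether the tips carry no enriched nucleosomes or lost their reads to the quality filter cannot be told apart with these files.

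Beyond the tips, H2A.Z cover in 100-kb bins counted from the chromosome end showed little correspondence between the segments at equal distance from the end. The bins were not aligned between the chromosomes. The runs described below were shifted, so these bins cannot show whether shifted stretches correspond. Across the 20 bins, the H2A.Z cover of chromosome 11 and of chromosome 12 had Pearson's r = 0.34 and Spearman's rho = 0.08, and r = -0.15 without the outermost bin. For H3 the values were r = 0.34, rho = 0.22 and r = 0.10 without that bin. These are descriptions over neighbouring bins from the same libraries, and among the 66 pairs of chromosome starts r ranked 16 for H2A.Z and 6 for H3. The median r of the other pairs was 0.19 for H2A.Z and 0.05 for H3. The emptiest inner bins lay at different distances from the chromosome end. On chromosome 11, H2A.Z cover was lowest from 1700 to 1800 kb (10.8 to 14.4 kb over the 4 libraries) and from 1000 to 1100 kb (10.0 to 15.4 kb). On chromosome 12 it was lowest from 100 to 200 kb (10.6 to 12.8 kb) and from 300 to 400 kb (11.4 to 13.6 kb). On chromosome 12 the same bin, from 1700 to 1800 kb, was the densest for both antibodies, with 29.8 to 32.8 kb of H2A.Z and 18.6 to 19.4 kb of H3. Within a segment, H2A.Z and H3 cover per bin had r = 0.41 on chromosome 11 and r = 0.64 on chromosome 12, over 20 bins each, and the outermost bin was low for both.

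**Figure D2:**
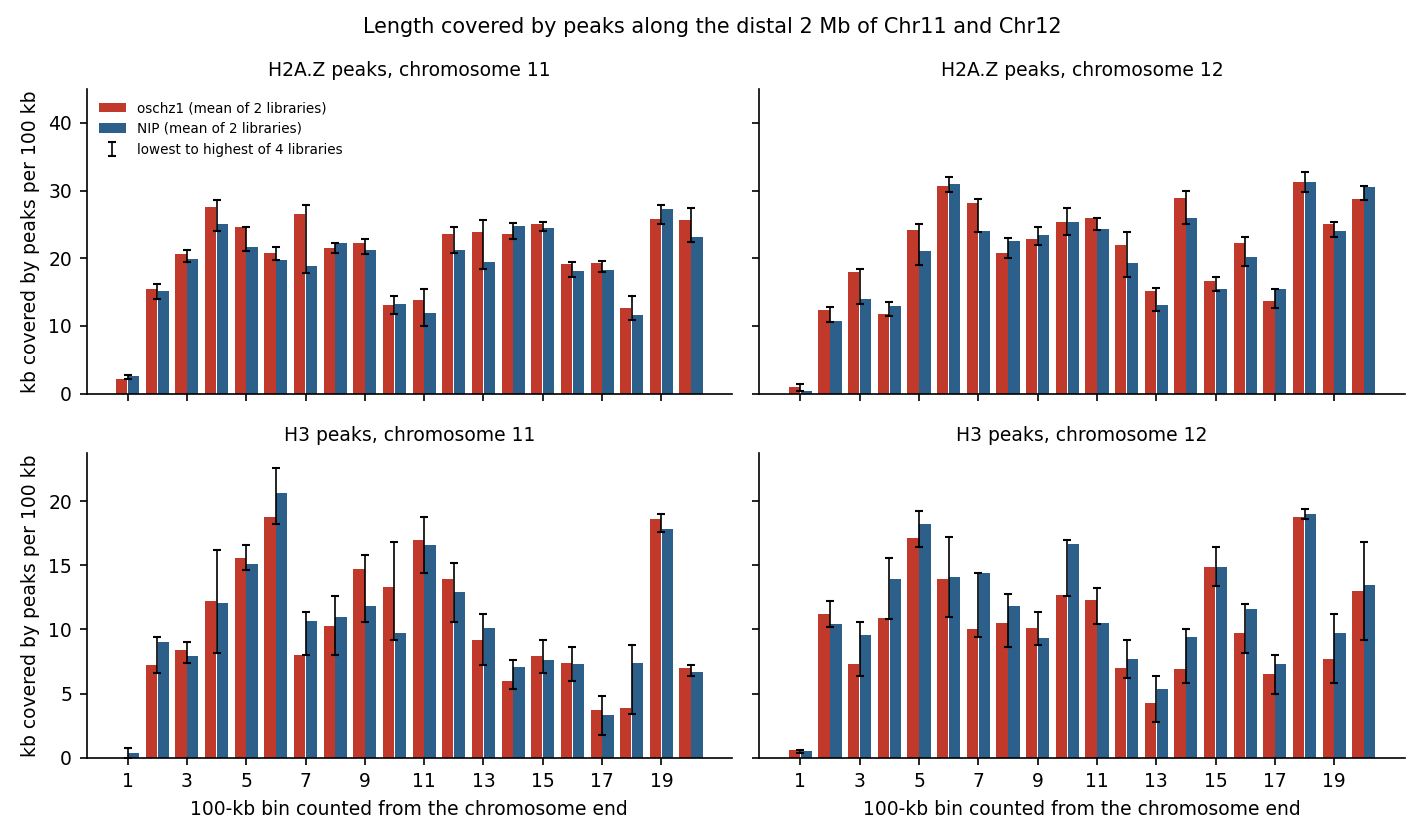
Length covered by H2A.Z peaks (top) and H3 peaks (bottom) in each 100-kb bin of the chromosome 11 segment (left) and the chromosome 12 segment (right), in kb, against the bin number counted from the chromosome end; bars are means of 2 libraries per genotype and whiskers run from the lowest to the highest of 4 libraries. The outermost bin is nearly empty on both chromosomes. The other bins rise and dip at different distances from the end, and bins were not aligned between the chromosomes.

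At a finer scale, both segments were searched for runs of H2A.Z regions in the same order, with similar spacing and width. Regions found in at least 2 of the 4 libraries were joined into runs when their widths differed by at most 400 bp, the distance to the previous paired region differed by at most 1000 bp, and both lay within 200 kb of each other on the 2 chromosomes. A run was scored by its number of pairs, less 0.5 for each region skipped and a penalty for unequal spacing. This search was chosen after seeing the data, and the scores are a description. Order, and width and spacing within these limits, are set by the search itself. Only scores and ranks compare the segments with other pairs of starts. Of the 621 runs of at least 4 pairs over all 66 pairs of chromosome starts, the 2 with the highest scores, 5.1 and 4.9, were between chromosomes 11 and 12. The next run, between chromosomes 5 and 10, scored 4.6, so the margin was small.

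The highest-scoring run had 7 pairs over 1858601-1900400 on chromosome 11 and 1782801-1823400 on chromosome 12. The partners were 75.8 to 77.2 kb nearer the end on chromosome 12. All 7 pairs had widths within 200 bp of each other, where the search allowed 400 bp, and 2 had equal widths. Its strongest pair was the region at 1876601-1877400 on chromosome 11, with a mean ChIP over input of 3.41, and the region at 1800201-1801200 on chromosome 12, with 3.80. The widest pair, at 1865401-1868600 and 1789401-1792400, had 2.75 on chromosome 11 and 2.46 on chromosome 12. Across the 7 pairs, ChIP over input had r = 0.93 between the chromosomes, with ratios of chromosome 11 over chromosome 12 between 0.879 and 1.15. These pairs share libraries and inputs, and r is a description.

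The other run also had 7 pairs, over 1688801-1736200 on chromosome 11 and 1645601-1693000 on chromosome 12, with a shift of 43.2 to 44.0 kb. Its widest pair was a region of 3400 bp on both chromosomes, at 1702201-1705600 and at 1658201-1661600, with a mean ChIP over input of 2.70 and 2.49. A region of 800 bp followed on both, at 1706801 and 1662801. Between the sixth pair and the last, at 1734601 and 1691001, lay a stretch without a peak in any of the 8 libraries, of 21.8 kb on chromosome 11 and 18.6 kb on chromosome 12. In this run ChIP over input was less alike, with r = 0.48 over 7 pairs and ratios of 0.707 to 1.44. Widths were within 200 bp of each other in 4 of the 7 pairs, and equal in 3. Agreement in width and in ChIP over input was not measured for runs between other chromosomes. A shorter run of 4 pairs, at 1931201-1937400 and 1851001-1857200, had a shift of 80.2 to 80.4 kb and ranked 13. Not all runs between the segments had a shift to this side, since the run that ranked 12, with 6 pairs at 1443801-1472400 and 1494601-1521800, had shifts of -50.8 to -49.0 kb.

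The runs had higher scores with the NIP libraries than with the oschz1 libraries. With the 2 NIP libraries alone, the run with shifts of 76.6 to 77.2 kb had 8 pairs and again the highest score, 5.7 of 560 runs. With the 2 oschz1 libraries alone, it had 5 pairs and ranked 249 of 417, and the highest run between chromosomes 11 and 12 ranked 11 with a score of 3.8. Part of the same chromosome 11 stretch also matched another place on chromosome 12. In oschz1 the regions at 1872201-1900400 made a run of 5 pairs with 1947201-1974800, which scored 3.8 and ranked 12. In NIP the regions at 1879201-1902600 made a run of 5 pairs with 1953001-1977400, which scored 3.9 and ranked 13, and with all 4 libraries the match there had 4 pairs and ranked 148. The run at 43.2 to 44.0 kb had 4 pairs in oschz1 (rank 79) and 6 pairs in NIP (rank 12, shifts of 42.8 to 44.0 kb). The difference between genotypes was not tested. H3 regions gave 1410 runs, and the highest between chromosomes 11 and 12 ranked 35.

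**Figure D3:**
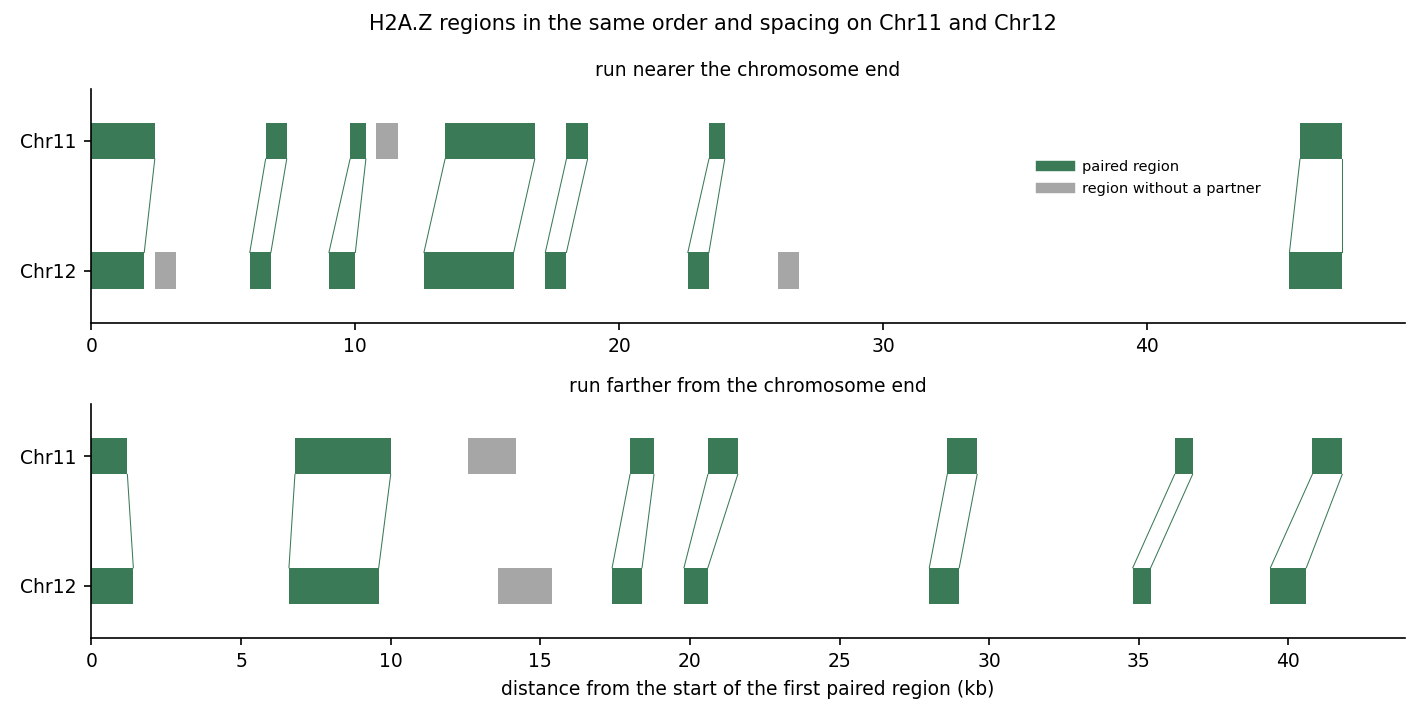
H2A.Z regions found in at least 2 libraries in the 2 highest-scoring runs, drawn to scale as distance in kb from the start of the first paired region, chromosome 11 above chromosome 12. Green regions joined by lines are the 7 pairs of each run, and gray regions have no partner; the pairs keep their order and nearly their spacing.

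Between genotypes, H2A.Z ChIP over input was lower in oschz1 in both segments, while peak cover was higher. On chromosome 11, ChIP over input was 2.18 and 2.21 in oschz1, against 2.33 and 2.40 in NIP, a difference of -0.173 with no overlap (exact permutation p = 0.333, the smallest that 2 against 2 libraries can give, and 0.667 adjusted over 4 comparisons). On chromosome 12 it was 2.19 and 2.20 in oschz1, against 2.28 and 2.45 in NIP, a difference of -0.169 (exact p = 0.333, adjusted p = 0.667). Without NIP replicate 2 the chromosome 12 value was -0.0824, without NIP replicate 1 it was -0.255, and in regions of equal extent it was -0.0816 with overlap (exact p = 0.667). The length in H2A.Z peaks was 27200 bp higher in oschz1 on chromosome 11 and 19900 bp higher on chromosome 12, again with no overlap (exact p = 0.333 and adjusted p = 0.444 for both). Without oschz1 replicate 1 and without oschz1 replicate 2 the chromosome 11 value was 12500 and 41900 bp, and without NIP replicate 1 and without NIP replicate 2 the chromosome 12 value was 33200 and 6600 bp. At a false discovery rate of at most 1e-10 the values were 12700 bp (exact p = 0.667) and 1200 bp (exact p = 1), and the genotypes overlapped. With only peaks of a fold over input of at least 2, the cover was lower in oschz1, by -18700 bp on chromosome 11 and -22000 bp on chromosome 12. The medians of the other 10 starts stood in the same order, with ChIP over input of 2.16 and 2.13 in oschz1 against 2.29 and 2.33 in NIP. Their median H2A.Z cover was 21.9% and 21.4% in oschz1 against 20.5% and 19.6% in NIP.

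H3 gave no such pattern in ChIP over input. It was 1.52 and 1.57 in oschz1 on chromosome 11, against 1.49 and 1.58 in NIP (exact p = 1, adjusted p = 1, n = 2 each), and 1.53 and 1.55 in oschz1 on chromosome 12, against 1.51 and 1.55 in NIP (exact p = 1, adjusted p = 1, n = 2 each). The length in H3 peaks on chromosome 12 was lower in both oschz1 libraries, 207400 and 203400 bp against 230200 and 225600 bp in NIP (exact p = 0.333, adjusted p = 0.444). On chromosome 11 it was 218200 and 188000 bp in oschz1, against 210000 and 200200 bp in NIP, which overlap.

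Counted by region, ChIP over input of 134 of the 495 H2A.Z regions with a peak in all 4 libraries (27.1%) lay in both oschz1 libraries below both NIP values, and that of 51 (10.3%) lay above them. Over the 38145 such regions of the genome the shares were 26.6% lower and 11.0% higher, so the segments were near the background. The median log2 change in ChIP over input was -0.08 on chromosome 11 and -0.11 on chromosome 12, beside -0.09 over all regions. For H3, 40 of 207 regions (19.3%) were lower and 48 (23.2%) were higher without overlap, against a background of 17.9% and 17.3%.

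The test of ChIP reads per region called 6 of the 495 H2A.Z regions, all with more reads in oschz1, 2 of 243 on chromosome 11 and 4 of 252 on chromosome 12. The test was edgeR's quasi-likelihood test over all 38145 regions, with Benjamini-Hochberg adjusted p of at most 0.05. The 6 regions are 1.21% of those tested in the segments, and the background over the genome was 0.731% higher and 0.0760% lower. No region of the segments was called lower by edgeR. Before adjustment 38 regions were lower and 31 higher with a p under 0.05, and DESeq2 called 1 lower and 14 higher, with a background over the genome of 0.320% lower and 1.87% higher. The median log2 change in reads was -0.02 in the segments, as it was over all regions.

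The clearest of the 6 was the region at 1572001-1576800 on chromosome 12. It had 81.3 and 78.1 reads per 1000000 reads in peaks (RPM) in oschz1, against 35.3 and 35.5 RPM in NIP, and the log2 change was 1.17 ± 0.06 (SE; adjusted p = 1.78e-04 by edgeR). The peaks of the oschz1 libraries covered 4600 and 4400 bp of it, and those of both NIP libraries 2800 bp. ChIP over input was 2.44 and 2.25 in oschz1, against 1.70 and 2.01 in NIP. It was the one called region in which both oschz1 libraries lay above both NIP libraries in ChIP over input. RPM per covered kb was 17.7 and 17.8 in oschz1, against 12.6 and 12.7 in NIP. RPM per covered kb was also higher in oschz1 without overlap at 737001-739000 on chromosome 12 (17.2 and 14.8 against 11.9 and 12.6). The same held at 141001-142800 on chromosome 11 (9.94 and 9.93 against 8.92 and 8.71). It was lower in oschz1 at 1213401-1216400, and the genotypes overlapped at 148001-149800 and 697001-698000.

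The region at 1213401-1216400 on chromosome 12 had 27.6 and 27.5 RPM in oschz1, against 13.9 and 13.0 RPM in NIP (log2 change 1.03 ± 0.11, SE, edgeR adjusted p = 0.00662). Peaks covered 3000 bp in both oschz1 libraries, against 1000 and 800 bp in NIP, and RPM per covered kb was 9.18 and 9.17 in oschz1, against 13.9 and 16.2 in NIP. The region at 148001-149800 on chromosome 12 had 14.1 and 14.8 RPM in oschz1, against 5.09 and 4.50 RPM in NIP (log2 change 1.59 ± 0.18, SE, edgeR adjusted p = 0.00892), with 1800 and 1600 bp covered in oschz1 and 600 and 400 bp in NIP. The region at 737001-739000 had 34.3 and 29.7 RPM in oschz1, against 19.1 and 20.1 RPM in NIP (log2 change 0.71 ± 0.11, SE, edgeR adjusted p = 0.0346), with 2000 bp covered in oschz1 and 1600 bp in NIP.

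On chromosome 11, the region at 697001-698000 had 14.4 and 13.8 RPM in oschz1, against 5.14 and 5.69 RPM in NIP (log2 change 1.39 ± 0.17, SE, edgeR adjusted p = 0.0146). Its ChIP over input was lower in oschz1, at 2.36 and 1.99, than in NIP, at 3.24 and 3.32, and peaks covered 1000 bp in oschz1 and 400 bp in NIP. The region at 141001-142800 had 17.9 and 15.9 RPM in oschz1, against 8.92 and 8.71 RPM in NIP (log2 change 0.94 ± 0.15, SE, edgeR adjusted p = 0.0445), with 1800 and 1600 bp covered in oschz1 and 1000 bp in both NIP libraries. In all 6 regions the peaks of each oschz1 library were longer than those of either NIP library, and reads outside a library's own peaks are not counted. The part of peak length in these calls was not tested directly. Of the 70 segment regions whose extent was the same in all 4 libraries, edgeR called none (before adjustment 9 were lower and 1 higher with a p under 0.05). None of the 6 called regions was among these 70. Over the genome, 284 of the 7107 regions of equal extent were called lower and 25 (0.352%) higher, so that most calls there had the opposite direction to those over all regions. With log2 ChIP over input as the measure, limma called none of the 495 regions, and none of the 38145 regions of the genome. Before adjustment, 25 of the 495 were lower and 8 higher with a p under 0.05. The 6 regions had changes of -0.59 to 0.34. Without oschz1 replicate 1, 3 of the 6 regions were still called, with 5 without oschz1 replicate 2, 4 without NIP replicate 1 and 4 without NIP replicate 2. The calls at 141001-142800 on chromosome 11 and 737001-739000 on chromosome 12 were the least stable, and held in 3 and 4 of 11 alternatives. By edgeR with recovered library sizes their adjusted p was 0.0713 and 0.0674, and with the replicate block 0.0849 and 0.0700. Without NIP replicate 2, edgeR called 1 region of the segments lower, beside 4 higher.

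**Figure D4:**
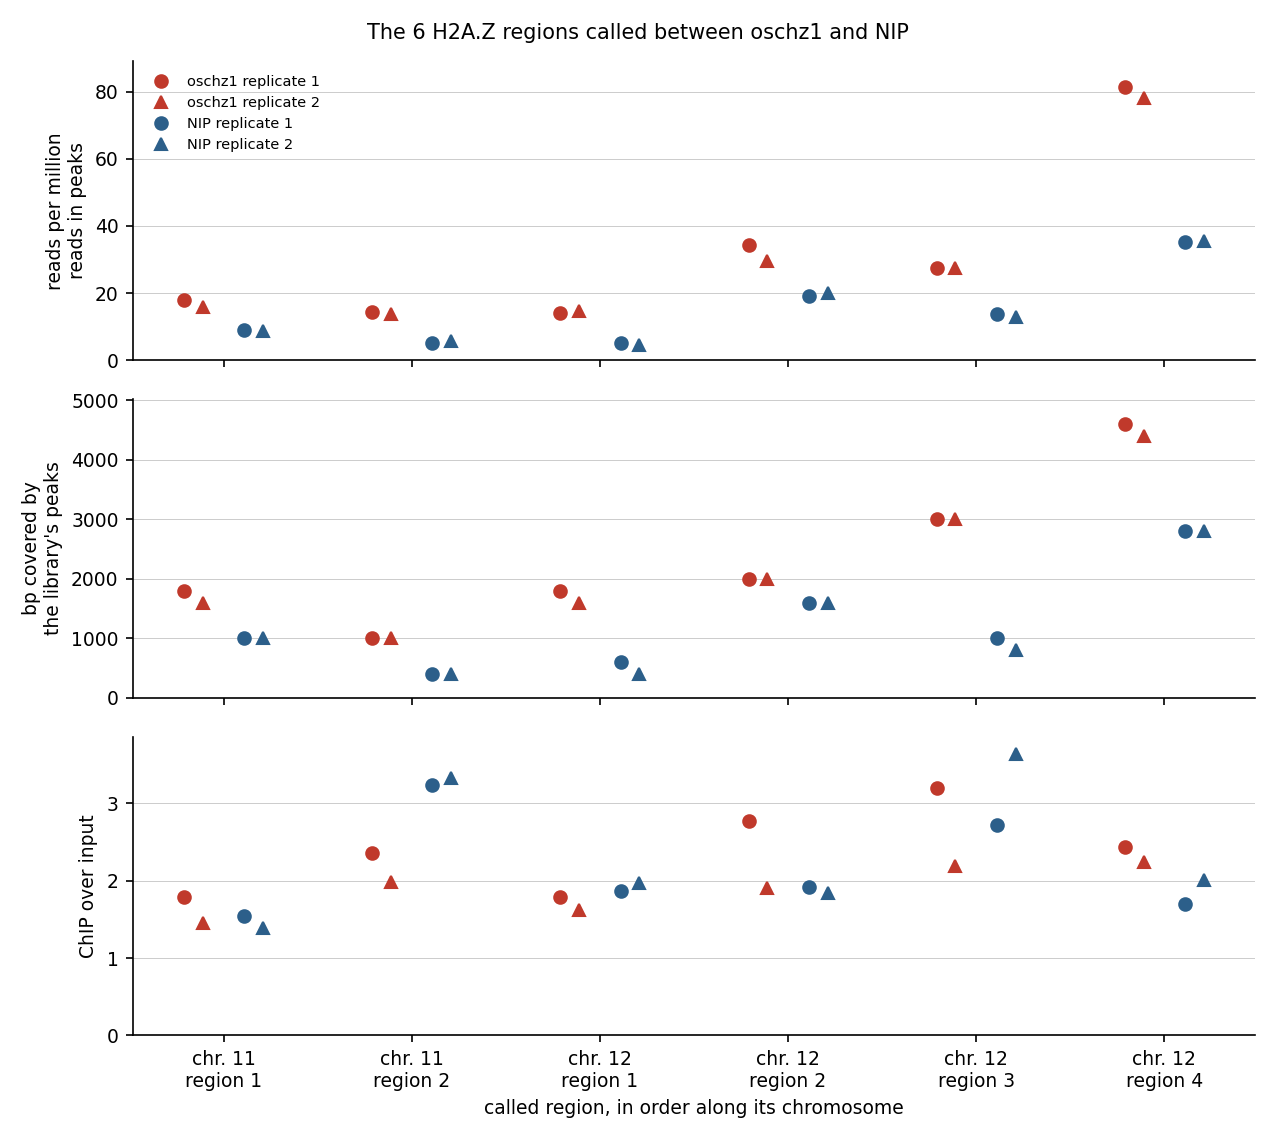
The 6 H2A.Z regions with an adjusted p of at most 0.05, in order along chromosomes 11 and 12, with reads per 1000000 reads in peaks (top), bp covered by the library's peaks (middle) and ChIP over input (bottom) in each library; red is oschz1 and blue is NIP. Reads and covered length lie higher in both oschz1 libraries in all 6 regions, while ChIP over input does so only in the region at 1572001-1576800 on chromosome 12.

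For H3, edgeR called none of the 207 regions of the segments with a peak in all 4 libraries, and none of the 25169 regions of the genome, so that the background was 0%. Before adjustment 5 regions were lower and 5 higher with a p under 0.05, and DESeq2 called 1 higher, with a background over the genome of 0.302% lower and 0.389% higher. Of the 40 segment regions of equal extent in all 4 libraries, edgeR called 1 lower, with a background of 0.0236% lower and 0.803% higher.

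Several of the regions of highest ChIP over input rested on few input reads. On chromosome 11, the H2A.Z region at 1328001-1329000 averaged 4.50, but its libraries gave 7.14 and 2.86 in oschz1, against 4.28 and 3.70 in NIP, over 16 to 35 input reads. The region at 1986001-1986800 averaged 4.32, with 2.06 and 4.03 in oschz1 against 2.08 and 9.08 in NIP, the last over 7 input reads. The third, at 1202601-1203000, averaged 3.92. On chromosome 12, the region at 1180401-1180800 averaged 3.89, the paired region at 1800201-1801200 averaged 3.80 (4.05 and 2.40 in oschz1 over 60 and 87 input reads, against 3.59 and 5.16 in NIP over 72 and 46), and the region at 1843201-1844000 averaged 3.52. The genotypes overlapped in all 6 of these regions. The highest H3 values were 3.17 at 1096401-1097200, 3.09 at 679001-679200 and 2.62 at 697001-698000 on chromosome 11. On chromosome 12 they were 3.02 at 1185601-1186200, 2.97 at 665801-667400 and 2.95 at the lone peak of the empty tip. Few input reads also weighed on H3 values of chromosome 11. At 697001-698000, NIP replicate 1 gave 5.50 over 4 input reads, and the other libraries 1.41 to 2.13. At 679001-679200, NIP replicate 2 gave 5.59 over 5 input reads. The merged H3 region at 697001-698000 has the same extent as the called H2A.Z region of chromosome 11. Its H3 peaks covered 400 bp in both oschz1 libraries, and 200 and 1000 bp in NIP.

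The widest H2A.Z region was on chromosome 12 at 520601-535600 and 15000 bp long. Its peaks covered 15000 and 14800 bp in oschz1, against 14600 and 14200 bp in NIP, with 209 and 212 RPM in oschz1 against 218 and 213 RPM in NIP (log2 change -0.03 ± 0.03, SE, edgeR adjusted p = 0.716). ChIP over input was 2.24 and 2.61 in oschz1, against 2.48 and 2.47 in NIP. The next widest on chromosome 12 were 6400 bp at 948601-955000 and 5600 bp at 1712201-1717800. On chromosome 11 the widest were 7600 bp at 1414201-1421800, 6000 bp at 450801-456800 and 5200 bp at 1815601-1820800. None of these 6 was called, and their log2 changes in reads lay between -0.17 and 0.06. The widest H3 regions were 6600, 5000 and 3200 bp on chromosome 11 and 6400, 5600 and 5200 bp on chromosome 12. The widest of each lay at 496401-503000 and at 477601-484000.

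Among H2A.Z regions in which the genotypes did not overlap in ChIP over input, the lowest log2 difference was on chromosome 12 at 1842201-1842800, with 1.38 and 1.78 in oschz1 against 2.83 and 5.86 in NIP (log2 difference -1.38). The value of 5.86 came from 9 input reads, and the ChIP reads were 6.68 and 8.67 RPM in oschz1 against 8.34 and 7.52 RPM in NIP. On chromosome 11 the lowest was at 900401-901200, with 1.94 and 1.59 in oschz1 against 2.95 and 3.54 in NIP (log2 difference -0.88). The highest were at 1521801-1522200 on chromosome 11, with 3.93 and 2.99 in oschz1 against 1.67 and 2.15 in NIP (log2 difference 0.85), and at 1511001-1512000 on chromosome 12, with 2.87 and 2.07 in oschz1 against 1.30 and 1.43 in NIP (log2 difference 0.84). For H3 the largest differences were 1.06 and -1.07 on chromosome 11 and 1.17 and -0.78 on chromosome 12. None of these 8 regions was called by the test of reads, with edgeR adjusted p between 0.501 and 0.957.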

How the data were processed

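ChIP-seq of H2A.Z and H3 was analysed in 8 libraries, 2 per antibody and genotype. The authors trimmed reads with CUTADAPT, mapped them to MSU7 with Bowtie2, and removed PCR duplicates and reads of low mapping quality with SAMtools. The deposited tables list SICER peaks (windows and gaps of 200 bp, false discovery rate of 0.05 for H2A.Z), called per library. The H3 tables have the same layout, but their caller is not given in the sources used here. The deposited read counts per peak (ChIP and input) are whole numbers. As deposited, fold is ChIP reads divided by input reads, a ratio with 1 scale per library, and the authors also give a p-value and a q-value per peak.

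Peaks were merged per antibody. Regions with a peak in all 4 libraries were tested by edgeR 4.0.16 (R 4.3.3) on ChIP counts, without the replicate block. Alternatives used TMM, DESeq2 1.42.0, limma 3.58.1, other filters and single libraries left out. Named regions were, per segment and antibody, up to 5 called, the 3 of highest ChIP over input, the 3 widest, and the largest non-overlapping difference in ChIP over input in each direction. Members and lists were chosen with earlier results of these data known. The run search and the input density relative to the library median were added after seeing the data. No gene annotation of MSU7 was used here, so no gene was placed.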

Additional observations from a re-analysis of the deposited data

Results flagged for a closer look

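On the chromosome 12 segment, the length in peaks differed between genotypes in opposite directions for the 2 antibodies. H2A.Z peaks covered 427800 and 421800 bp in oschz1, against 418200 and 391600 bp in NIP, a difference of 19900 bp. H3 peaks covered 207400 and 203400 bp in oschz1, against 230200 and 225600 bp in NIP, a difference of -22500 bp. Every oschz1 library lay beyond every NIP library in both cases, and the difference between the antibodies was not tested. The directions depended on which peaks were counted. Among peaks passing a false discovery rate of 1e-10, both differences were positive, at 1200 bp for H2A.Z and 5200 bp for H3. Keeping only peaks whose fold reached 2 reversed both, to -22000 bp for H2A.Z and 8800 bp for H3. Over the first 1.5 Mb the directions stayed, at 20100 bp and -17100 bp. They also stayed when any 1 library was left out.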

How the results depend on the processing

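The count of 6 called H2A.Z regions became 15 with DESeq2. It was 0 with a peak in at least 2 libraries and with limma on ChIP over input. Those settings also called 0 of 48071 and 0 of 38145 regions over the genome. The count was 0 as well among regions of the same extent in all 4 libraries. None of the 6 regions could be tested there, because their extents differed between libraries. With recovered library sizes 4 were called. Leaving out a library gave 3 to 7, of which 1 was lower without NIP replicate 2. With limma the log2 change was -0.59 at 697001-698000 on chromosome 11, and -0.17 at 148001-149800 and -0.25 at 1213401-1216400 on chromosome 12. With the replicate block 5 of 495 were called, 4 of them among the 6, and 0 for H3; the numbers did not pair the libraries (correlation of deviations -0.0118 for H2A.Z and -6.47e-04 for H3). For H3, DESeq2 called 1 higher and the same-extent regions 1 lower. All 60 alternative values of the segments against the other 10 starts kept their direction in the mean, though not always their size, as did 58 of 70 for chromosome 11 minus 12 and 50 of 64 for oschz1 minus NIP. For chromosome 11 minus 12 the reversed values were, at a false discovery rate of 1e-10, 4.63 bp in H2A.Z width and -0.0546 in H2A.Z input. Over the first 1.5 Mb they were 3.17 H2A.Z peaks per Mb, 0.287 points of H3 cover and -0.00558 in H3 ChIP over input. With peaks under 600 bp apart joined they were -0.00262 in H2A.Z ChIP over input and -1.5 H3 peaks per Mb. For oschz1 minus NIP they were -18700 bp (chromosome 11) and -22000 bp (chromosome 12) of H2A.Z cover and 3200 bp and 8800 bp of H3 cover at a fold of at least 2, and 5200 bp of H3 cover on chromosome 12 at 1e-10. H3 ChIP over input on chromosome 12 was -0.103 at 1e-10, -0.221 at a fold of at least 2 and -0.00604 over the first 1.5 Mb, and on chromosome 11 -0.0845 in same-extent regions. Leaving out a library gave -0.0148 to 0.0195 and -0.018 to 0.054 for H2A.Z ChIP over input and input between the chromosomes and -1.17 to 2.5 for H3 peaks per Mb. For H3 between genotypes it gave -0.0372 to 0.0587 (chromosome 11) and -0.0115 to 0.0316 (chromosome 12) in ChIP over input and -17100 to 13100 bp of chromosome 11 cover. The causes were not tested.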
